A study of Mus musculus with 6 samples.

Results

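Transcripts of the ATF4 amino acid stress response were followed in whole melanoma tumours through 9 genes: Atf4, Ddit3, Asns, Trib3, Chac1, Psat1, Phgdh, Shmt2 and Mthfd2. The genes were taken by name from a table of 20938 genes. All 9 were in the table, and all 9 passed the filter for testing, which 11241 genes passed. The tumours grew from B16F10 cells, a pigmented mouse melanoma line of C57BL/6 origin, injected subcutaneously in 200 µL of saline into male C57BL/6 mice aged 6 weeks, on the side of the left hind leg. There were 3 tumour samples of cells overexpressing YKL-40, a secreted chitinase-like protein, and 3 control tumour samples, all collected on day 19. The labels do not tie a sample to a mouse of its own, so n counts samples, here called libraries. The labels give the genotype WT to both groups and do not name the vector of either. The study asked what YKL-40 does to melanoma growth.

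ATF4 is a basic leucine zipper transcription factor whose protein is made when kinases that sense missing amino acids, unfolded protein, haem shortage or viral RNA phosphorylate the translation factor eIF2. It is controlled mainly at translation, so the level of its RNA does not measure its protein. ATF4 binds with C/EBP proteins to a composite site and raises genes that import amino acids, make asparagine, serine and glycine, charge tRNAs and, under long stress, promote cell death. Tumour cells use this response where amino acids run short.

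The core of the composite site was looked for in the promoters of these genes, and the matches are shown because the site is where ATF4 is known to act. The RefSeq promoter table (GRCm38.p6) gives windows from 250 bases before to 50 bases after each start, and all 9 genes were matched by symbol. The motif searched was TGATGNAA on both strands, where N is any base. No other motif was searched. Asns, Trib3 and Chac1 held it, 3 of the 9 genes, against 4.51% of all 27025 genes in the table and 3.97% of all 32851 windows. Of 118 further genes of the pathway, described below, 87 were matched and 16 of these held it (18.4%). The sites of Asns, Trib3 and Chac1 are shown with those of Slc7a11, the cystine importer, and Atf3, a partner factor. Each is read on the strand that spells the motif, with the motif in capitals, and the Slc7a11 stretches overlap each other.
Asns, chr6:7693214-7693243, minus strand: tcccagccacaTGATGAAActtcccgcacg
Trib3, chr2:152344028-152344057, plus strand: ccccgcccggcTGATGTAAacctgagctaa
Chac1, chr2:119351038-119351067, minus strand: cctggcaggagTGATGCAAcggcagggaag
Slc7a11, chr3:50443661-50443690, minus strand: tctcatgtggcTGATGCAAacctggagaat
Slc7a11, chr3:50443642-50443671, plus strand: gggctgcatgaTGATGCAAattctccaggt
Atf3, chr1:191183425-191183454, plus strand: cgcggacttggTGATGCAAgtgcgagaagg
The match in Asns lay at bases -23 to -16 from the RefSeq start and that in Chac1 at -193 to -186, while the match in Trib3 lay just inside the gene, at 15 to 22. The other 6 genes had no match, which says only that these letters are not in those windows. For Mthfd2, on the minus strand, the window (83317555 to 83317854) lay inside the gene (83305704 to 83326011). The upstream end of that gene was therefore not searched.

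None of the 9 genes passed the test between YKL-40 and control tumours. The limma test on log2(FPKM + 1), where FPKM is fragments scaled to transcript length and library size, called 0 of 9 after Benjamini-Hochberg adjustment over all tested genes, against 0.436% of all genes. At an unadjusted p under 0.05 it took 0 of 9, against 18.0% of all genes, a count that rose in some of the alternatives given at the end. In 0 of 9 did the tumour groups separate in either direction, against 10.3% of all genes with YKL-40 higher throughout and 14.2% with YKL-40 lower throughout. The median change was -0.13 on the log2 scale, against -0.04 over all tested genes, and 7 of the 9 changes were below 0, against 57.8% of all genes. The adjusted p ran between 0.310 for Chac1 and 0.981 for Atf4. The spread within a group, pooled over both groups, exceeded the change for 7 of the 9 genes.

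The FPKM values summed to 468605 to 490955 in the YKL-40 libraries and to 469464 to 479586 in the control libraries, and read totals are unknown. The mouse gene of YKL-40, Chil1, was listed at 0 in all 3 YKL-40 libraries and at 0.0644, 0 and 0.0242 FPKM in the controls. It therefore gives no check of the labels, because the species and form of the overexpressed sequence are not stated. Melanocyte markers such as Dct, Tyrp1 and Pmel summed to 8664 to 10804 FPKM in YKL-40 tumours and 8662 to 10132 FPKM in controls, and 0 of 8 passed in limma, with 1 higher at an unadjusted p under 0.05. Macrophage markers summed to 221 to 361 FPKM in YKL-40 tumours and 65.4 to 174 FPKM in controls, with 0 of 11 past the threshold and 9 higher at an unadjusted p under 0.05. Fibroblast markers summed to 252 to 432 FPKM in YKL-40 tumours and 47.4 to 265 FPKM in controls (0 of 8 past the threshold, 7 higher unadjusted). T and NK cell markers summed to 9.49 to 32.1 FPKM in YKL-40 tumours and 0.591 to 1.61 FPKM in controls, with 2 of 3 tested past the threshold and 3 higher unadjusted. Without YKL-40 library 1 or 3, or control 1 or 2, 0 of the T and NK cell markers passed. The same held with a pseudocount of 0.01 and without the filter, where 10 were tested. Skeletal muscle markers summed to 3.92 to 29.6 FPKM in YKL-40 tumours and 45.9 to 187 FPKM in controls, with 0 of 11 past the threshold and 10 lower unadjusted. Endothelial markers summed to 89.2 to 113 FPKM in YKL-40 tumours and 60.3 to 129 FPKM in controls, with 0 of 8 past the threshold and 1 higher unadjusted. Adipocyte markers summed to 52.9 to 86.0 FPKM in YKL-40 tumours and 58.3 to 92.7 FPKM in controls, with 0 of 1 tested past the threshold and 0 unadjusted. No keratinocyte marker reached the filter, and Krt14, Krt1 and Dsg3 were at 0 in every library. Over all tested genes, 0.436% passed the threshold and 18.0% had an unadjusted p under 0.05, in either direction. What part any of these cells has in the values below was not tested. In tumour RNA, fewer cells of a type and less RNA per cell cannot be told apart. Of 8 genes of MHC class I presentation 7 rose in limma (H2-K1, H2-D1, Tap1, Tap2, Tapbp, Psmb8 and Psmb9), against 0.436% called over all genes. Of these 8 genes 0 passed without YKL-40 library 1, control 1 or control 2, and 0 without the filter on low values. H2-K1, which presents peptides to T cells, had 548 ± 181 FPKM in YKL-40 tumours and 99.3 ± 7.26 in controls (SD, n = 3 each).

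The mean of Atf4 was nearly the same in both groups, 47.3 ± 5.12 FPKM in YKL-40 tumours and 47.7 ± 11.5 FPKM in controls (SD, n = 3 each). The gene (chromosome 15, 80255184 to 80257545, mm10) had 48.3, 51.9 and 41.8 FPKM in YKL-40 tumours and 37.4, 60.1 and 45.5 FPKM in controls. Both the highest and the lowest library were controls, so the YKL-40 values lay inside the control range. The change was 0.01 (limma, 95% interval -0.40 to 0.42, adjusted p = 0.981), an interval that runs from 0.758-fold to 1.34-fold of FPKM + 1. Its sign turned with array quality weights (-0.26) and, with changes between -0.15 and 0.19, when single libraries were left out.

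Ddit3 encodes CHOP, the factor that ATF4 induces and that drives cell death under lasting stress. It lies on chromosome 10 (127290793 to 127296291). Its levels were 46.2, 43.6 and 42.7 FPKM in YKL-40 tumours and 23.9, 51.7 and 34.3 FPKM in controls. The YKL-40 libraries stood close together and the controls ranged over 2.16-fold. The change was 0.33 (95% interval -0.24 to 0.90, adjusted p = 0.512 in limma). Without control 2 the change was 0.61 (limma, unadjusted p = 0.00984, adjusted p = 0.281), in a fit where 0 of all genes passed, and without control 1 it was 0.07. The library kit keeps no strand, and Ddit3 shares 68 exon bases with Mars on the other strand, which are 3.97% of its exon bases.

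Trib3 and Chac1 varied most. Trib3 encodes a pseudokinase that binds ATF4 and CHOP and restrains them. It had 22.2, 41.4 and 25.9 FPKM in YKL-40 tumours and 17.7, 52.3 and 32.3 FPKM in controls. The controls differed by 2.95-fold among themselves, more than for any other of the 9 genes, and the YKL-40 values lay inside their range. The change was -0.11 (95% interval -1.01 to 0.79, adjusted p = 0.910 in limma). It became 0.25 without control 2 and 0.07 without YKL-40 library 1, neither past the threshold.

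Chac1 encodes an enzyme that breaks down glutathione and is induced by ATF4. The gene (chromosome 2, 119351242 to 119354326) had 6.93, 18.4 and 9.91 FPKM in YKL-40 tumours and 12.5, 31.2 and 21.9 FPKM in controls. The groups overlapped through YKL-40 library 2, which lay above control 1. Chac1 averaged 11.7 ± 5.95 FPKM in YKL-40 tumours and 21.9 ± 9.35 FPKM in controls (SD, n = 3 each), 0.537-fold. Its change of -0.86 was the largest of the 9 (95% interval -1.78 to 0.07) and did not pass in limma (adjusted p = 0.310). It passed with array quality weights (-1.21, adjusted p = 0.0486 in limma), in a fit that called 1111 of all genes against 49. With the replicate block, which called 120, it also passed (-0.86, adjusted p = 0.0496), though no label pairs the samples. Over its 15 alternatives the adjusted p ran between 0.0486 and 0.606. Without YKL-40 library 1 the change was -0.56 and without control 2 it was -0.57, while without YKL-40 library 2 it was -1.21 and without control 1 it was -1.19. Its paralog Chac2 had 6.82, 3.63 and 6.95 FPKM in YKL-40 tumours and 5.11, 7.32 and 6.19 FPKM in controls (-0.12, adjusted p = 0.828).

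Asns, which makes asparagine from aspartate, was the most abundant of the 9 genes. It lies on chromosome 6 (7675165 to 7693209) and stood above 98.0% of tested genes by mean FPKM. Its levels were 233, 323 and 226 FPKM in YKL-40 tumours and 266, 399.7 and 325 FPKM in controls. YKL-40 libraries 1 and 3 were the lowest of all 6, while library 2 lay between the controls. The change was -0.34 (95% interval -0.79 to 0.11, adjusted p = 0.395 in limma), between 0.580-fold and 1.08-fold of FPKM + 1. It was -0.19 without control 2 and -0.50 without YKL-40 library 2.

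**Figure D1:**
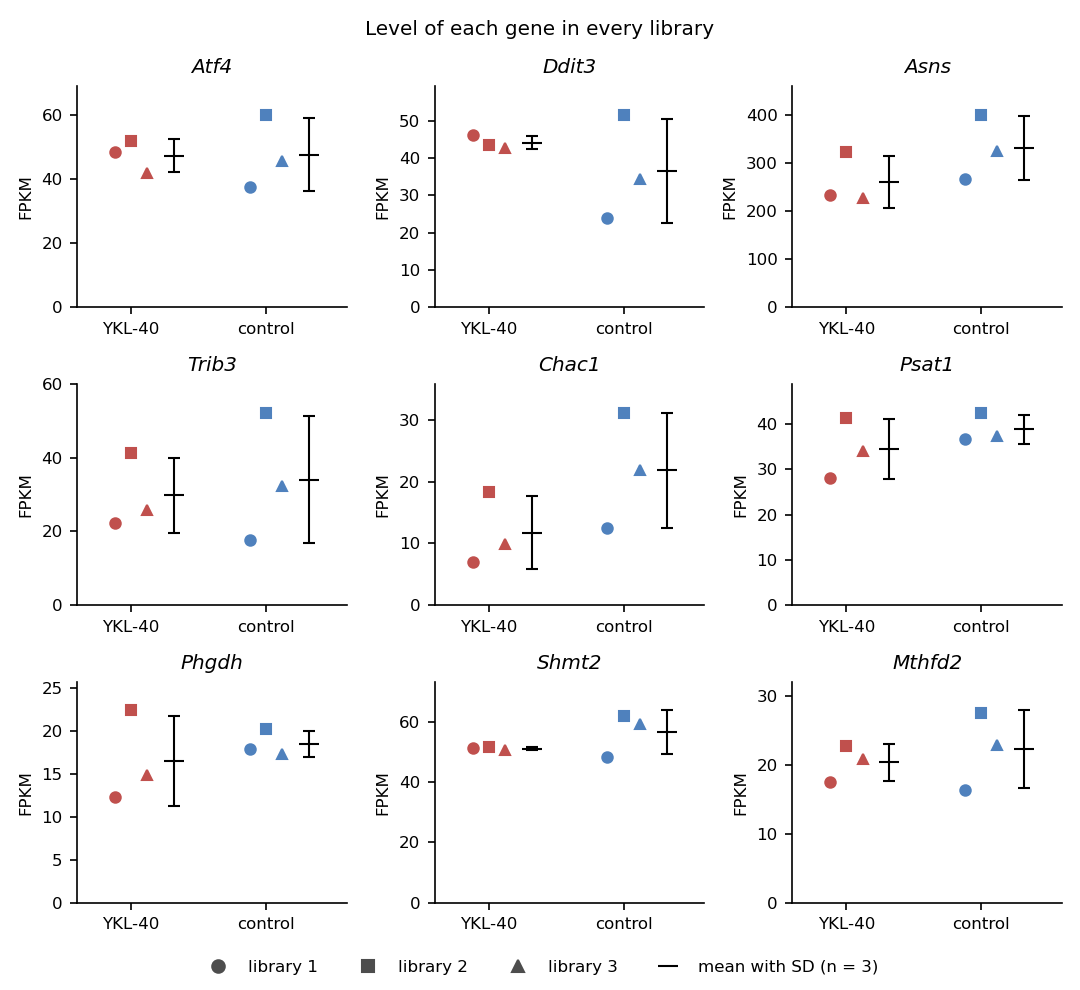
FPKM of the 9 genes in every library (y axes, linear, starting at 0), YKL-40 tumours in red and control tumours in blue, with the symbol giving the library number and the bar the mean with SD (n = 3). In each panel the groups overlap, and control 2 (blue square) is the highest library for every gene but Phgdh.

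Phgdh and Psat1 catalyse the first and the second step of serine synthesis from glycolysis. Phgdh had 12.3, 22.4 and 14.9 FPKM in YKL-40 tumours and 17.9, 20.2 and 17.4 FPKM in controls. Its highest and lowest values both came from YKL-40 tumours, and the change was -0.19 (95% interval -0.66 to 0.28, adjusted p = 0.647 in limma). Without YKL-40 library 2 the change of Phgdh was -0.42 (adjusted p = 0.146) and without library 1 it was -0.01. Psat1 had 28.1, 41.3 and 34.1 FPKM in YKL-40 tumours and 36.6, 42.5 and 37.4 FPKM in controls. YKL-40 libraries 1 and 3 were the lowest, with a change of -0.18 (95% interval -0.52 to 0.16, adjusted p = 0.561). It was -0.31 without YKL-40 library 2 and -0.04 without library 1. Psph, the last enzyme of the same route, had 15.0 ± 2.47 FPKM in YKL-40 tumours and 17.0 ± 2.49 FPKM in controls (-0.17, adjusted p = 0.587).

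Shmt2 and Mthfd2 encode mitochondrial enzymes of the route that passes the carbon of serine through folate. Shmt2 had 51.2, 51.7 and 50.5 FPKM in YKL-40 tumours and 48.2, 61.8 and 59.4 FPKM in controls. The YKL-40 libraries agreed to within 1.02-fold, and control 1 lay below them. The change was -0.13 (95% interval -0.39 to 0.13, adjusted p = 0.573 in limma), the narrowest interval of the 9, and it was -0.24 without control 1 and -0.06 without control 2. Shmt2 shares 32 exon bases (1.03% of its own) with Ndufa4l2 on the other strand, which had 93.9, 19.0 and 27.0 FPKM in YKL-40 tumours and 28.9, 81.2 and 89.0 FPKM in controls. Mthfd2 had 17.5, 22.8 and 20.9 FPKM in YKL-40 tumours and 16.4, 27.6 and 22.8 FPKM in controls. The YKL-40 values lay inside the control range, and the change was -0.10 (95% interval -0.55 to 0.35, adjusted p = 0.818). It was 0.06 without control 2, 0.00 without YKL-40 library 1 and -0.30 without control 1. The cytosolic counterpart Shmt1 had 3.58 ± 0.659 FPKM in YKL-40 tumours and 4.75 ± 0.202 FPKM in controls, without overlap, and did not pass (-0.34, adjusted p = 0.253).

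By level, the order in YKL-40 tumours was Asns, Shmt2, Atf4, Ddit3, Psat1, Trib3, Mthfd2, Phgdh and Chac1. In controls it was Asns, Shmt2, Atf4, Psat1, Ddit3, Trib3, Mthfd2, Chac1 and Phgdh. Asns stood apart, since its lowest library (226 FPKM) exceeded the highest value of Shmt2 (61.8 FPKM). All other neighbours in both orders had overlapping values over the 6 libraries.

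**Figure D2:**
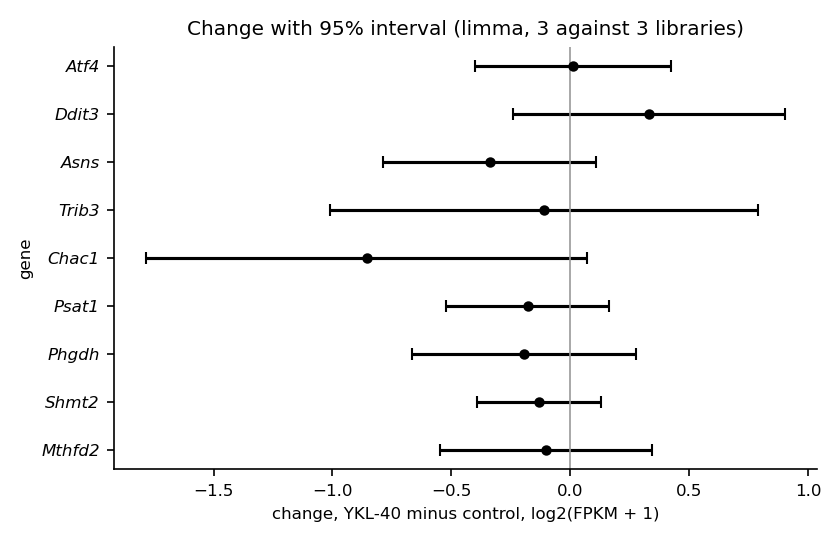
Change of each gene between YKL-40 and control tumours on the log2(FPKM + 1) scale (x axis), with its 95% interval from limma, 3 against 3 libraries. All 9 intervals include 0, from the widest for Chac1 (-1.78 to 0.07) to the narrowest for Shmt2 (-0.39 to 0.13).

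Most of the 9 genes shared the highest library of each group, though not the full order of the libraries. This pattern was noticed in the values and is given as a description. Control 2 was the highest of the 6 libraries for 8 of the 9 genes, where it was highest for 13.8% of all tested genes. Within the controls, control 2 was highest for 9 of 9 and control 1 lowest for 8 of 9, against 27.2% and 35.5% of all genes. Within the YKL-40 tumours, library 2 was highest for 8 of 9 (40.0% of all genes), with Ddit3 the exception. For 8 of the 9 genes library 2 led in both groups, against 9.47% of all tested genes. The median of the 9 genes, centred on the 6 libraries, was -0.31, 0.16 and -0.16 in YKL-40 libraries 1, 2 and 3 and -0.25, 0.38 and 0.11 in the controls on the log2 scale. The median over all tested genes stayed between -0.04 and 0.04. Melanocyte marker FPKM also summed highest in library 2 of each group (10804 in YKL-40 and 10132 in controls). By the median of the 8 markers, centred in the same way, control 2 was highest among controls (0.13). Among YKL-40 tumours it was library 3 (0.10, against 0.01 in library 2). The part of these markers in the pattern was not tested.

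The spread within groups was wide for most of these genes. The pooled SD on the log2 scale was 0.64 for Chac1 and 0.62 for Trib3, larger than for 97.6% and 97.4% of tested genes. Ddit3 followed with 0.38, Phgdh with 0.31, and Asns and Mthfd2 with 0.29 each. Atf4 had 0.26 and Psat1 0.21. Only Shmt2, with 0.13, lay below the median of all tested genes (0.15). Of the genes with the composite motif in the promoter window, Chac1 and Trib3 had the widest spread of the 9. Asns, which also held it, lay below Ddit3 and Phgdh, which did not. Whether the motif has a part in the spread was not tested.

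**Figure D3:**
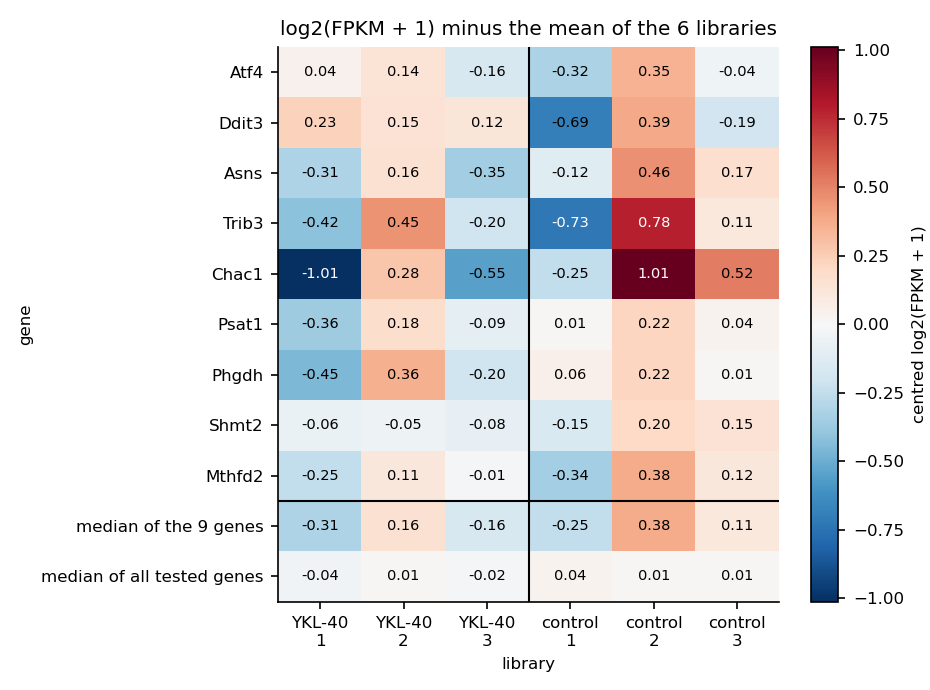
log2(FPKM + 1) of each gene minus its mean over the 6 libraries (colour and printed value), libraries in columns with YKL-40 left of control. Control 2 and YKL-40 library 2 are above the mean for most genes (medians 0.38 and 0.16), while YKL-40 library 1 and control 1 are below it (medians -0.31 and -0.25).

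Because the libraries differed in Atf4 RNA, the other 8 genes were also divided by Atf4 in the same library, a measure chosen after the values were seen and given with no test. Asns per Atf4 was 4.82, 6.22 and 5.42 in YKL-40 tumours and 7.11, 6.65 and 7.15 in controls. Each YKL-40 library was below each control, with a mean of 5.49 ± 0.706 in YKL-40 tumours and 6.97 ± 0.274 in controls (SD, n = 3 each), 0.787-fold. It was the only one of the 8 ratios with YKL-40 lower throughout, where 2.59% of 11219 tested genes had such a ratio. Chac1 per Atf4 was 0.143, 0.355 and 0.237 in YKL-40 tumours and 0.334, 0.519 and 0.482 in controls, with YKL-40 library 2 above control 1. Ddit3 per Atf4 was 1.25-fold by its means, with 0.957, 0.841 and 1.02 in YKL-40 tumours and 0.639, 0.860 and 0.753 in controls, again overlapping. The mean ratios of Trib3, Psat1, Phgdh, Shmt2 and Mthfd2 were 0.870-fold to 0.929-fold of the control mean, with overlapping libraries for each.

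**Figure D4:**
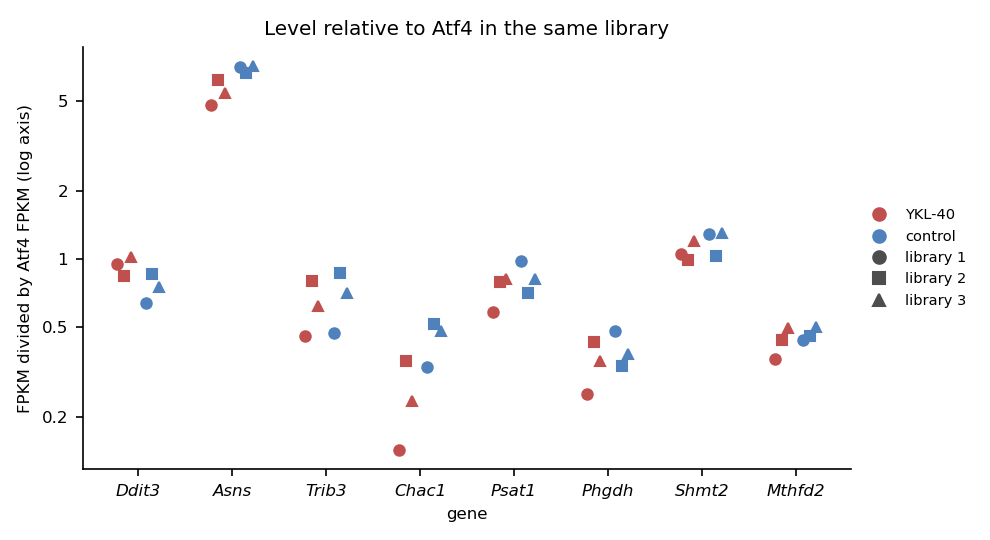
FPKM of 8 genes divided by the FPKM of Atf4 in the same library (y axis, log scale), YKL-40 tumours in red and controls in blue, symbols by library number. The groups separate for Asns alone, at 4.82 to 6.22 in YKL-40 tumours and 6.65 to 7.15 in controls.

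Of 118 further genes of the pathway on 8 lists, 110 could be tested, and 0 passed in limma (smallest adjusted p = 0.0881). With array quality weights 2 stress targets and 1 serine, glycine and folate gene passed, in a fit that called 1111 of all genes against 49, and without YKL-40 library 2 there was 1 stress target past the threshold. The groups did not overlap for 8 of the 110 with YKL-40 higher and for 9 with YKL-40 lower, against 10.3% and 14.2% of all tested genes. Before adjustment 11 had a p under 0.05 (7 with YKL-40 higher, 4 with YKL-40 lower), which is 10.0% of the 110 against 18.0% of all genes. Among the 15 eIF2 kinases, eIF2 and eIF2B subunits and phosphatase subunits upstream of ATF4, 1 had such a p, and the median change was -0.05. This was Eif2s2, the beta subunit of eIF2, with 69.9 ± 0.918 FPKM in YKL-40 tumours and 85.7 ± 11.5 FPKM in controls (-0.28, adjusted p = 0.253). Eif2s1, the subunit that is phosphorylated, had 68.1 ± 2.12 FPKM in YKL-40 tumours and 76.3 ± 4.77 FPKM in controls (-0.16, adjusted p = 0.382). Neither gene's groups overlapped. Eif2ak3, which encodes PERK, the kinase of the endoplasmic reticulum, had 14.1 ± 2.38 FPKM in YKL-40 tumours and 17.8 ± 2.32 FPKM in controls (-0.33, adjusted p = 0.294). Eif2ak4, the amino acid sensor GCN2, had 21.6 ± 3.16 FPKM in YKL-40 tumours and 25.2 ± 2.34 FPKM in controls (-0.22, adjusted p = 0.415). Of the remaining eIF2 kinases, Eif2ak1 changed by -0.09 (adjusted p = 0.697 in limma) and Eif2ak2 was higher in YKL-40 tumours (0.12, adjusted p = 0.776). Eif2ak4, Eif2ak1, Eif2ak2 and other list members named outside the 3 of lowest p were chosen after their values were seen.

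Among 10 transcription partners, 2 had an unadjusted p under 0.05, against 18.0% of all tested genes, and both were higher. Cebpb, which encodes a C/EBP protein that pairs with ATF4, had 9.04, 7.17 and 9.16 FPKM in YKL-40 tumours and 1.65, 5.46 and 0.844 FPKM in controls. Each YKL-40 library exceeded each control, and the change of 1.57 did not pass over all genes (SE 0.41, adjusted p = 0.127 in limma). Atf3, an ATF4 target that acts as a partner, had 5.69, 4.03 and 3.77 FPKM in YKL-40 tumours and 1.28, 3.05 and 3.36 FPKM in controls (0.66, adjusted p = 0.255). Macrophages also express Cebpb and Atf3, and macrophage marker sums were higher in YKL-40 tumours (221 to 361 against 65.4 to 174 FPKM); their part was not tested. Jdp2, a further partner, had 13.2, 17.3 and 19.2 FPKM in YKL-40 tumours and 11.9, 18.2 and 12.5 FPKM in controls (0.22, adjusted p = 0.588). The list had a median change of 0.03.

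Other stress targets and paralogs gave 3 of 12 tested genes at an unadjusted p under 0.05, against 18.0% of all tested genes. Their median change was -0.13. Gdf15, a secreted stress cytokine, had 1.56, 2.50 and 1.25 FPKM in YKL-40 tumours and 3.47, 4.16 and 3.85 FPKM in controls. Its groups did not overlap, and its adjusted p of 0.0881 (change -0.82, SE 0.18, limma) was the smallest of the 110. Tnfrsf10b, the death receptor that CHOP induces, had 4.17 ± 0.954 FPKM in YKL-40 tumours and 6.42 ± 0.782 FPKM in controls (-0.53, adjusted p = 0.170). Ero1l, an oxidase of the endoplasmic reticulum, had 537 ± 207 FPKM in YKL-40 tumours and 307 ± 92.0 FPKM in controls (0.77, adjusted p = 0.264). Gdf15 and Tnfrsf10b are also targets of p53 and Ero1l is also induced by hypoxia, so these genes are not read by ATF4 alone.

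Of 15 further serine, glycine and folate genes, 13 had a change below 0 (median -0.16), against 57.8% of all tested genes, and 2 had an unadjusted p under 0.05, against 18.0%. Aldh1l1, a cytosolic folate dehydrogenase, was the higher one, with 10.4 ± 0.988 FPKM in YKL-40 tumours and 7.07 ± 1.09 FPKM in controls (0.51, adjusted p = 0.121 in limma). Shmt1 was the lower one. Slc25a32, the mitochondrial folate carrier, had 6.80 ± 0.642 FPKM in YKL-40 tumours and 8.37 ± 0.804 FPKM in controls (-0.27, adjusted p = 0.282). Of 14 other amino acid synthesis genes, 1 had such a p (median -0.02). Asl, an enzyme of arginine synthesis, had 98.8 ± 1.78 FPKM in YKL-40 tumours and 83.1 ± 5.89 FPKM in controls (0.25, adjusted p = 0.216). Gpt2, a mitochondrial alanine transaminase, had 26.6 ± 8.65 FPKM in YKL-40 tumours and 35.9 ± 4.65 FPKM in controls (-0.46, adjusted p = 0.342). Bcat2, a branched-chain transaminase, had a difference of 0.19 (adjusted p = 0.361).

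The 8 tested amino acid transporters linked to ATF4 had 0 members at an unadjusted p under 0.05 in limma and a median change of -0.07. Slc7a11 had 2.54, 8.03 and 3.71 FPKM in YKL-40 tumours and 4.84, 7.92 and 8.09 FPKM in controls (-0.55, adjusted p = 0.443). Slc1a4, an importer of serine and alanine, had 12.6 ± 3.49 FPKM in YKL-40 tumours and 15.5 ± 4.55 FPKM in controls (-0.28, adjusted p = 0.581). Slc38a2, an importer of glutamine, had a difference of -0.15 (adjusted p = 0.587). Library 2 was highest in both groups for 5 of these 8 transporters, 11 of 20 cytosolic tRNA synthetases, 6 of 16 ER chaperones and 5 of 14 amino acid synthesis genes, against 9.47% of all tested genes. The same held for 3 of 12 stress targets, 3 of 15 serine, glycine and folate genes, 2 of 10 transcription partners and 1 of 15 eIF2 genes. Among melanocyte markers, which are not on the pathway, it held for 4 of 8.

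The 20 tRNA synthetases, which charge tRNAs with amino acids and many of which ATF4 raises, had a median change of 0.00. Sars, for serine, had 73.5 ± 2.80 FPKM in YKL-40 tumours and 61.1 ± 7.70 FPKM in controls (0.27, adjusted p = 0.266 in limma). Vars, for valine, had 28.0 ± 2.14 FPKM in YKL-40 tumours and 23.3 ± 2.14 FPKM in controls (0.25, adjusted p = 0.267). Kars, for lysine, had 52.9 ± 5.36 FPKM in YKL-40 tumours and 45.3 ± 1.42 FPKM in controls (0.22, adjusted p = 0.312). None of these passed. In 3 of the 20 synthetases, these same genes, the YKL-40 libraries lay above the controls, against 10.3% of all tested genes. Of the synthetases with a promoter window, 5 of 12 held the composite motif: Aars, Gars, Iars, Tars and Yars. The 16 ER chaperones, which answer mainly to other arms of the unfolded protein response, had 0 members at an unadjusted p under 0.05 in limma and a median change of 0.03. The lowest p among them belonged to Dnajc3 (-0.30, adjusted p = 0.306), Manf (0.23, adjusted p = 0.357) and Sel1l (-0.18, adjusted p = 0.463).

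**Figure D5:**
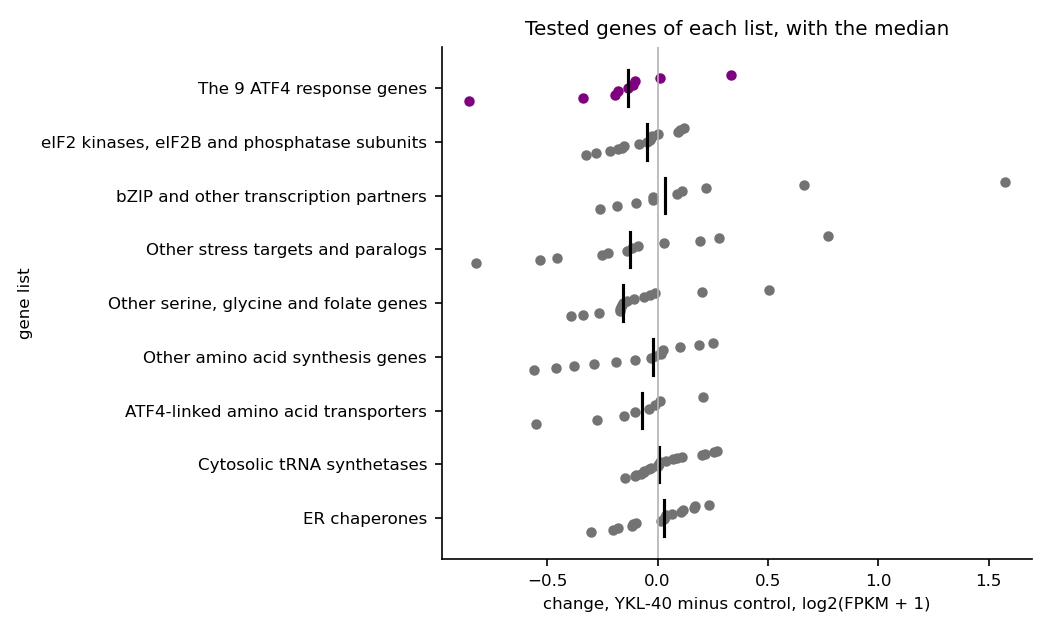
Change of every tested gene between YKL-40 and control tumours (x axis, log2 of FPKM + 1), by list, with the median of each list as a bar. The medians lie between -0.16 for serine, glycine and folate genes and 0.03 for transcription partners and ER chaperones, and Cebpb at 1.57 is the point farthest to the right.

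The genes whose library pattern was most like that of Chac1, the gene of the 9 with the largest SD over the 6 libraries, were found by the root mean square difference of centred log2(FPKM + 1) values. In order they were Kcnj8, a potassium channel subunit, with a difference of 0.199, Hoxb9, a homeobox factor (0.247), Slc7a11 (0.251), Ctla2a, a protease inhibitor (0.253), and Angpt2, a vessel growth factor (0.272). Kcnj8 had 0.815, 2.57 and 1.18 FPKM in YKL-40 tumours and 1.53, 3.69 and 3.69 FPKM in controls. Angpt2 had 10.2, 33.9 and 17.8 FPKM in YKL-40 tumours and 19.3, 31.4 and 33.7 FPKM in controls. Both were lowest in YKL-40 library 1, as was Chac1, a likeness for which they were chosen. Among the other 8 genes Trib3 (0.400) and Asns (0.404) were nearest to Chac1 and Ddit3 (0.719) farthest.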

How the data were processed

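The authors deposited 1 table of FPKM values, with 1 column per library and 6 columns in all, each matched by name to a sample title. Per the labels' protocols, libraries were made with the TruSeq RNA V2 kit from 2 µg of RNA. Per the submitters' processing notes, the tools were StringTie, HISAT2, limma, DESeq2 and bcl2fastq 2.0, and the build was mm10, with no roles given. The annotation and how transcripts were combined per gene are not given in the sources used here. Read totals are unknown, so no counting interval is given.

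Genes whose mean over the libraries reached 1 FPKM were tested on log2(FPKM + 1), which understates changes of low genes, with limma 3.58.1 (variance trend, two-sided) in R 4.3.3, YKL-40 minus control. P-values were Benjamini-Hochberg adjusted over all tested genes, threshold 0.05. No label ties a library to a mouse of its own, and the p-values cover only the spread between these samples, which may be technical. The procedure was tested on simulated data. The 9 genes and the lists were chosen with earlier results of these data known. Every one of the 9 was named, and of each list the 3 tested genes of lowest p and any gene past the threshold. Gene positions and promoter windows came from RefSeq tables of GRCm38.p6, the assembly of mm10, and exon overlaps from GENCODE M21. The 15 alternatives used other pseudocounts (0.1, 0.01), filters (none, 5 FPKM) and scalings (sum, median of ratios), no variance trend, array quality weights, the replicate block and leaving out each library.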

Additional observations from a re-analysis of the deposited data

How the results depend on the processing

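The median change of the 9 genes was -0.13 in the main fit. Over 15 alternatives it stayed below 0 but ran between -0.31 without YKL-40 library 2 and -0.01 without YKL-40 library 1. The count of these genes past the threshold was 0 in 13 alternatives, including each fit without 1 library, and 1 with array quality weights and with the replicate block (Chac1 in both). At an unadjusted p under 0.05 in limma the count, 0 in the main fit, was less steady. It was 4 without YKL-40 library 2 (over all genes 2338 of 11242) and 3 without control 1 (1426 of 11267). Array quality weights gave 3 (3219 of 11241) and the replicate block gave 2 (1643 of 11241). Without control 2 it was 1 (1345 of 11269), and the alternatives not named here gave 0. Asns, Chac1, Ddit3, Phgdh, Psat1 and Shmt2 kept their direction in all 15. Atf4 was -0.26 with array quality weights and -0.15 to 0.19 without 1 library. Without 1 library, Mthfd2 ran between -0.30 and 0.0624 and Trib3 between -0.50 and 0.25. The cause was not tested. The count of all genes past the threshold, 49, was 1111 with array quality weights, 120 with the replicate block and 1 without a filter, which tests 16417 genes, and 0 (without control 2, with 1345 at an unadjusted p under 0.05 in limma) to 238 (without YKL-40 library 2) without 1 library. The labels do not say whether replicate numbers pair the samples. Same-numbered libraries had deviations correlated at -0.08, -0.19 and 0.00 over 11241 genes, and no library correlated best with its own number. Such correlations cannot show how the samples were collected or handled. With the replicate block Chac1 kept its change of -0.86 at an adjusted p of 0.0496 in limma. Unknown depth limits what can be said of low genes.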
